A study of Mus musculus with 18 samples.

Results

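The genes described here encode the teneurins Tenm2, Tenm3 and Tenm4 and the latrophilins Adgrl1, Adgrl2 and Adgrl3, cell-surface proteins that bind each other across the gap between neurons. The regions counted are the accessible sites (peaks) of a consensus ATAC-seq list that lay in one of the 6 genes or within 10 kb of either side. The genes were chosen by family, and the peaks by position alone. The rule took 491 of the 211682 peaks in the list (0.232%), of which 407 lay at teneurin genes and 84 at latrophilin genes. No peak was counted at more than 1 of the genes.

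ATAC-seq marks DNA that the Tn5 transposase can reach. It was run on primary cortical neurons from CD1 mouse embryos (E14.5 to 15) that received lentiviral short hairpin RNAs on day 6 in culture and were harvested on day 11. All cultures received cytosine arabinoside at 2 µM, which acts against dividing cells. The 18 samples form the groups shControl with shScrambled (5 samples), shControl with shAtf4 (3), shOpa1 with shScrambled (5) and shOpa1 with shAtf4 (5). Opa1 fuses inner mitochondrial membranes, and Atf4 is a transcription factor activated by cellular stress. The design asks how accessibility depends on Atf4 with and without loss of Opa1, but the list analysed here carries no value for a sample or a group. Nothing below therefore compares knockdowns, no value has a spread over cultures, and the read depth is unknown. In a culture of several cell types, a peak does not say in which cells the site was open. All 8 neuron markers examined had a peak within 1000 bp of an outermost gene end, as did 3 of 5 astrocyte, 2 of 5 oligodendrocyte and 3 of 5 microglia markers, against 70.4% of all protein-coding genes.

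Teneurins are large proteins anchored by a single membrane pass, with most of their length outside the cell. Latrophilins are adhesion G protein-coupled receptors, and latrophilin 1 (Adgrl1) is a receptor of the spider toxin alpha-latrotoxin. A teneurin on one cell and a latrophilin on another can form an adhesive pair that takes part in axon targeting and in the choice of synaptic partners. FLRT proteins bind latrophilins as well, and also bind the netrin receptors of the Unc5 family. Tenm3 is known for matching axons to their targets in the visual system and the hippocampus, and Adgrl3 for synapses onto hippocampal and cortical neurons.

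The annotated promoter windows of the 6 genes differed in sequence and in whether a peak lay on them. RefSeq promoter windows (GRCm38.p6, the assembly that mm10 names) run from 250 bases before an annotated start to 50 after it, and all 6 genes matched, with 9 windows in all. The most upstream window of each gene is shown 5′ to 3′ in the direction of transcription, to set their CpG content beside the presence of a peak. Capitals mark CpG dinucleotides. The windows of Tenm4 (chr7:96170994-96171293, plus strand), Adgrl1 (chr8:83899848-83900147, plus strand) and Adgrl3 (chr5:81020321-81020620, plus strand) lay wholly under a peak. Those of Tenm2 (chr11:36944192-36944491, minus strand), Tenm3 (chr8:48674641-48674940, minus strand) and Adgrl2 (chr3:148954586-148954885, minus strand) held no base of a peak.
Tenm4: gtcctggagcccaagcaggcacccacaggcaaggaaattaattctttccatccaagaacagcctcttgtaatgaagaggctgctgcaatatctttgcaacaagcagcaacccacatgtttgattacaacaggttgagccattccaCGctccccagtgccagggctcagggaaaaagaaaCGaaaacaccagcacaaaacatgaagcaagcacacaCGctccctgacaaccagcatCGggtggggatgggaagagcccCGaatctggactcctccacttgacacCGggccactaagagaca
Adgrl1: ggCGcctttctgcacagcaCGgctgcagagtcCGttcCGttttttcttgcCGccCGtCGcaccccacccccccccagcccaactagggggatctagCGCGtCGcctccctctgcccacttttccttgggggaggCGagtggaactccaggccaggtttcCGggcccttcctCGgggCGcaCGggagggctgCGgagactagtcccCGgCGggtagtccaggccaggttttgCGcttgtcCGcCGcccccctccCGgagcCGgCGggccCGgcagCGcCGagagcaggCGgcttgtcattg
Adgrl3: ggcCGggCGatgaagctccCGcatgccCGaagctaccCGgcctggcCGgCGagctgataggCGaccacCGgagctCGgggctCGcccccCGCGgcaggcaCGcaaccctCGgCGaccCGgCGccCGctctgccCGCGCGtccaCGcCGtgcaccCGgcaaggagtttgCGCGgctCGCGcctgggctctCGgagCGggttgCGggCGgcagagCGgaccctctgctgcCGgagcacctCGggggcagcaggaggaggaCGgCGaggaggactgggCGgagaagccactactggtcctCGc
Tenm2: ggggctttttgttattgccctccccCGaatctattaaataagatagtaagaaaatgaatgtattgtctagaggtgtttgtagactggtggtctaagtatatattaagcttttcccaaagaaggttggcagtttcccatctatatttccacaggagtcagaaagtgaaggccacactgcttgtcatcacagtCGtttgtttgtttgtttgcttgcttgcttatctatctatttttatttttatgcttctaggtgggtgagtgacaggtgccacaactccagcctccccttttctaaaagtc
Tenm3: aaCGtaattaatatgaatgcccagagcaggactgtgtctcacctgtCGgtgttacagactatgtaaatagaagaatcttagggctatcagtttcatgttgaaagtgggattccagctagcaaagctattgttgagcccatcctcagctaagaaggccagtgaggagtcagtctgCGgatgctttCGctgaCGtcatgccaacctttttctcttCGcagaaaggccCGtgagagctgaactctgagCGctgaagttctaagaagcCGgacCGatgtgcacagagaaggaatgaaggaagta
Adgrl2: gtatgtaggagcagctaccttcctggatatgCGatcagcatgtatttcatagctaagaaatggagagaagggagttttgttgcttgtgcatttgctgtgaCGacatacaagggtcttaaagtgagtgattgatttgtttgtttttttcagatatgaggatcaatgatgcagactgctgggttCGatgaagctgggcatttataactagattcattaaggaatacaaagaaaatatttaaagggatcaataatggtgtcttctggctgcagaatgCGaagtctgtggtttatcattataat

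Of the windows shown, that of Adgrl3 had 40 CpG dinucleotides and 75.3% G and C, and that of Adgrl1 had 28 and 70.0%. The Tenm4 window lay under a peak with only 6 CpG dinucleotides and 52.0% G and C, fewer than the 10 of the Tenm3 window, which lay under no peak. Tenm2 and Adgrl2, with 2 and 4, were the poorest. Across 21263 promoter windows of protein-coding genes the median was 21 CpG dinucleotides in windows with a peak and 3 in windows without one. The 6 members thus followed that order except for the pair of Tenm4 and Tenm3.

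Counting all 9 windows, 3 of the 6 genes (Tenm4, Adgrl1 and Adgrl3) had a peak on at least 1 window, against 64.0% of 17492 protein-coding genes in the table. Both windows of Tenm4 and all 3 of Adgrl3 were touched. The first 2 windows of Adgrl3 overlap and lay under the same peak of 879 bp. The annotated start of the second Tenm4 window lay 40.4 kb into the gene, and 261 of the window's 300 bases lay under a peak of 629 bp. Where no peak touched the window, the nearest one was 973 bp away at Adgrl2, 1635 bp away at Tenm3 and 2241 bp away at Tenm2. These starts lie far inside the outermost gene ends of the RefSeq table, by 34.5 kb in Adgrl2, 293 kb in Tenm2 and 848 kb in Tenm3, whereas the most upstream ones of Tenm4 and Adgrl1 coincide with the outermost start and that of Adgrl3 lies 1486 bp inside it.

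Short motifs were searched on both strands of the 9 windows. The cAMP response element TGACGTCA, bound by CREB and ATF family factors, was found once, in the Tenm3 window, and 2.23% of all promoter windows hold it. GC boxes (GGGCGG) were found in the Adgrl1 window and in all 3 windows of Adgrl3 (46.2% of all windows). The first 2 windows of Adgrl3 hold the same 2 GC boxes, in the stretch where they overlap. TATA boxes (TATAAA) were found in the Adgrl2 window and in the middle window of Adgrl3 (12.6%). The core of the C/EBP-ATF element (TGATGNAA, 3.60%) and the AP-1 motif (TGANTCA, 6.99%) were in none of the 9. No match says whether a factor was bound.

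Peaks at the outermost ends of the genes lay mostly at the start. Each of the 6 had a peak within 1000 bp of an outermost end, against 70.4% of 21774 protein-coding genes, and in each it lay at the outermost start, where 65.0% of 17492 protein-coding genes with a known strand had one. For Tenm2, Tenm3, Adgrl2 and Adgrl3 this is not the start of the promoter table, though in Adgrl3 the 2 starts lie only 1486 bp apart. The peak at the outermost start of Adgrl3 touched no promoter window. No data here show which start was transcribed. Adgrl2 carried the widest peak of all 491, 2356 bp over its outermost start (chromosome 3, 148988282 to 148990637). Tenm2 had a peak of 1347 bp there (chromosome 11, 37235777 to 37237123) and Tenm4 one of 1338 bp (chromosome 7, 96170861 to 96172198). Adgrl1 had one of 1288 bp (chromosome 8, 83898948 to 83900235), which also touched the noncoding gene Gm26721, and Adgrl3 one of 1003 bp (chromosome 5, 81019220 to 81020222). Tenm3 had a single peak of 491 bp (chromosome 8, 49521488 to 49521978), which lay inside the noncoding gene 4930555F03Rik as well. That peak was narrower than those just named, though wider than the median of the whole list, 425 bp. Its midpoint lay 1.09 kb after the outermost start, which it did not cover. With a window of 500 bp, or with only peaks of at least 500 bp, 5 of the 6 genes had a peak at an end. A peak within 1000 bp of the finish was found in 2 of the 6 genes, beside 25.0% of those with a known strand. They were Tenm4 (511 bp) and Adgrl1, where 4 peaks lay there.

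**Figure D1:**
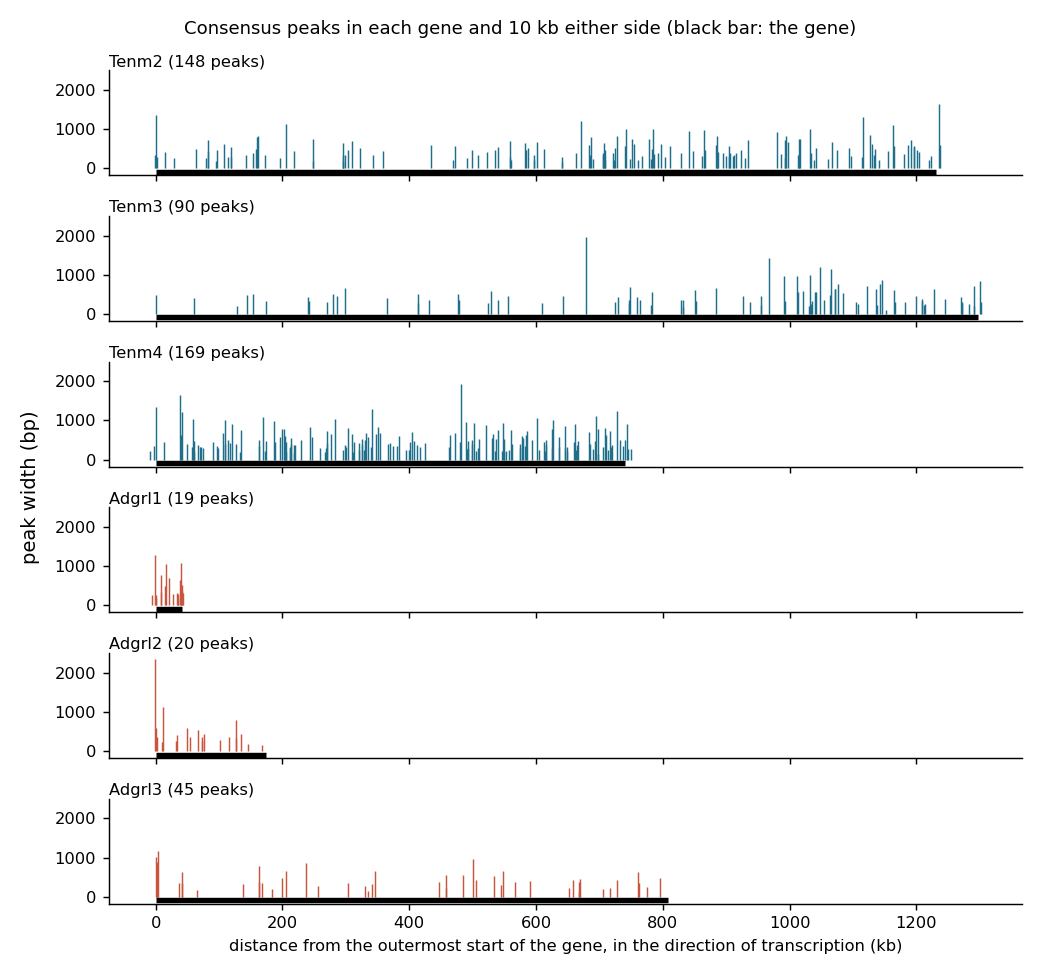
Every consensus peak in the 6 gene windows, placed by distance in kb from the outermost start in the direction of transcription, with line height showing peak width in bp and the black bar showing the gene. Tenm4 is filled with 169 peaks along 740 kb, whereas Adgrl3, of similar length, holds 45, and the peaks of Tenm3 gather towards its finish.

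The number of peaks per 100 kb varied 5.66 times among the 6 genes, and neither family was uniform. The gene and 10 kb on either side were counted, and exact 95% Poisson intervals cover counting error only. Adgrl1 (chromosome 8, 83900098 to 83941954) was the densest, with 19 peaks in a window of 61.9 kb, or 30.7 per 100 kb (18.5 to 48.0). That place depended on the window and on the gene ends. Adgrl1 fell below Tenm4 with a flank of 50 kb (19.0 per 100 kb, Tenm4 21.0). It did so too without peaks within 1000 bp of its ends (19.4, Tenm4 22.0). Adgrl1 stayed first with no flank (38.2, Tenm4 22.0), with a flank of 2 kb (39.3, Tenm4 22.0) and with peaks of at least 500 bp (11.3, Tenm4 9.08). With peaks under 500 bp apart joined, Adgrl1 had 17.8 and Tenm4 17.4. Tenm4 (chromosome 7, 96171244 to 96911093) followed in the main window with 169 peaks in 760 kb, or 22.2 per 100 kb (19.0 to 25.9). Tenm2 (chromosome 11, 36006656 to 37237053) had 148 peaks, or 11.8 per 100 kb (10.01 to 13.9), and Adgrl2 (chromosome 3, 148815586 to 148989096) had 20, or 10.3 (6.31 to 16.0). These genes of the middle of the order differ in length by a wide margin, 1230 kb for Tenm2 and 174 kb for Adgrl2. Tenm3 (chromosome 8, 48225665 to 49522824), the longest gene at 1297 kb, had 90 peaks, or 6.83 per 100 kb (5.49 to 8.40). Adgrl3 (chromosome 5, 81019085 to 81827825) was the sparsest, with 45 peaks in 829 kb, or 5.43 per 100 kb (3.96 to 7.27).

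All 15 pairs of genes were then compared by an exact conditional binomial test on peak counts given window length (two-sided, Benjamini-Hochberg adjusted over the 15), in which peaks are the units. Of these, 11 pairs differed at an adjusted p under 0.05. The pair tests used the main counts only and treat neighbouring peaks as independent. With peaks under 500 bp apart joined, Adgrl1 went from 30.7 to 17.8 per 100 kb, and the pairs were not tested in that setting. Among neighbours in the order, Tenm4 exceeded Tenm2, which had 0.532 times its density (95% interval 0.424 to 0.668, adjusted p = 1.08e-07, exact test). The other neighbours did not pass. Tenm4 had 0.724 times the density of Adgrl1 (0.450 to 1.23, adjusted p = 0.194, exact test), Tenm2 1.15 times that of Adgrl2 (0.715 to 1.93, adjusted p = 0.651, exact test), Tenm3 0.661 times that of Adgrl2 (0.404 to 1.13, adjusted p = 0.143, exact test) and Tenm3 1.26 times that of Adgrl3 (0.870 to 1.84, adjusted p = 0.232, exact test). The intervals leave room for differences of 1.5 times or more in each of these pairs.

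Tenm4 and Adgrl3 are the teneurin and the latrophilin nearest in length, at 740 and 809 kb. Tenm4 had 4.10 times the peak density of Adgrl3 (95% interval 2.93 to 5.83, adjusted p = 9.26e-20, exact test). Among the 227 protein-coding genes of at least 500 kb, whose median was 8.11 peaks per 100 kb, Tenm4 ranked 4th from the top, Tenm2 58th, Tenm3 129th and Adgrl3 154th. Adgrl2 lay near the middle of the 3137 genes with windows of at least 100 kb (median 10.6, quartiles 6.38 and 16.0), at percentile 48.8. Adgrl1, whose window is shorter, lay at percentile 96.2 of all 21774 genes.

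**Figure D2:**
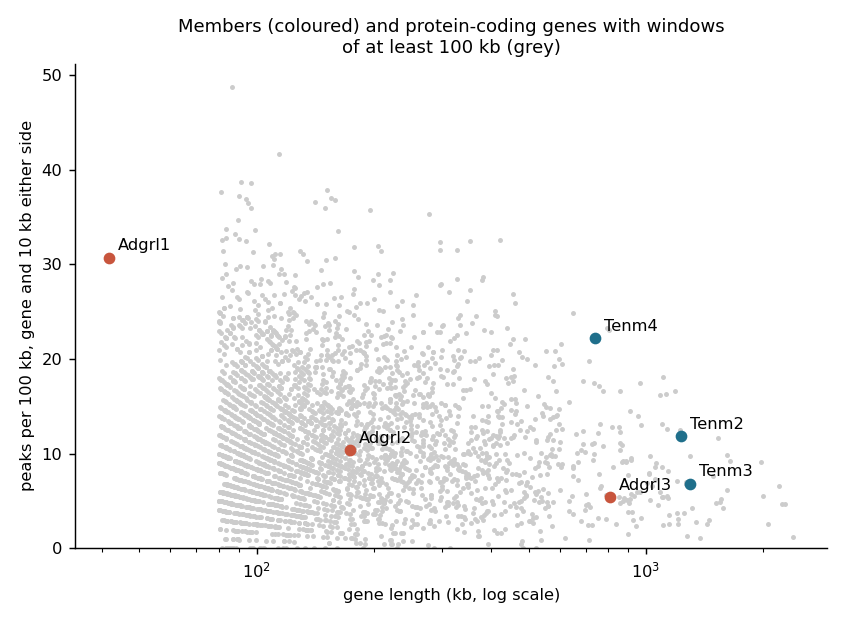
Peaks per 100 kb (gene and 10 kb either side) against gene length in kb on a log axis, for protein-coding genes with windows of at least 100 kb in grey and the 6 members in colour (teneurins blue, latrophilins red). Tenm4 lies near the upper edge for its length at 22.2, Adgrl3 lies low at 5.43, and Adgrl1, whose window is under 100 kb, is shown for comparison at 30.7.

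Summed over each family, the teneurins had 407 peaks in 3327 kb (12.2 per 100 kb, 11.1 to 13.5) and the latrophilins 84 in 1084 kb (7.75, 6.18 to 9.59). The teneurin density was 1.58 times that of the latrophilins (95% interval 1.25 to 2.02, p = 8.07e-05, adjusted p = 0.000242 over 3 family tests, exact conditional binomial test). That ratio rested on single genes. Without Tenm4 it was 1.20 (p = 0.161, exact test), and without Adgrl3, which makes up 76.4% of the latrophilin sequence, it turned to 0.801 (p = 0.196, exact test). With each gene weighted alike, the mean was 13.6 per 100 kb for teneurins and 15.5 for latrophilins, and the medians were 11.8 and 10.3. The densities of the members of both families overlapped, and since genes are not replicates the test speaks only of these 6 loci.

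**Figure D3:**
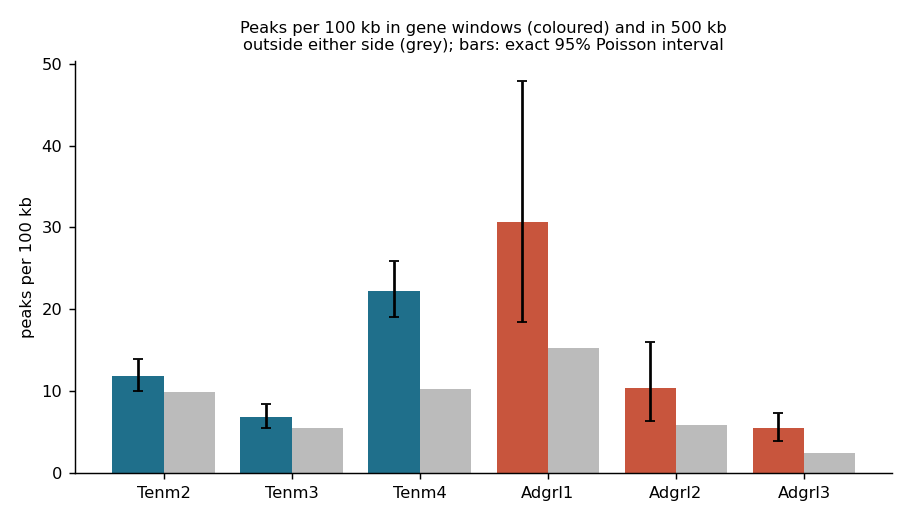
Peaks per 100 kb in the window of each gene (coloured bars, exact 95% Poisson intervals) and in the 500 kb beyond the window on either side (grey bars). Each coloured bar is taller than its grey neighbour, by 2.26 times at Adgrl3 and 1.20 times at Tenm2.

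The surroundings of the genes were examined in the 500 kb beyond either side of each window. All 6 windows had more peaks per 100 kb than their surroundings, against 59.5% of 3137 protein-coding genes with windows of at least 100 kb, where the median ratio was 1.14. The window of Adgrl1, at 61.9 kb, is outside that class, to which the other 5 belong. Adgrl3 and its surroundings were both sparse, at 5.43 and 2.40 per 100 kb (ratio 2.26, 95% interval 1.35 to 3.88, adjusted p = 0.00301 over the 6 genes, exact conditional binomial test). Tenm4 had 22.2 against 10.3 outside (ratio 2.16, 1.68 to 2.79, adjusted p = 2.41e-09, exact test). Adgrl1 had 30.7 against 15.3 (ratio 2.01, 1.18 to 3.24, adjusted p = 0.0159, exact test) in a region with 30 other protein-coding genes, and Adgrl2 had 10.3 against 5.80 (ratio 1.78, 1.02 to 3.01, adjusted p = 0.0460, exact test) with none. Tenm2 (11.8 against 9.90, ratio 1.20, 0.921 to 1.56) and Tenm3 (6.83 against 5.50, ratio 1.24, 0.879 to 1.77) did not pass (adjusted p = 0.210 for both, exact test). These tests used the main window only. Without peaks within 1000 bp of its ends, Adgrl1 had 19.4 per 100 kb, Adgrl2 9.30, Tenm4 22.0 and Adgrl3 5.31. Whether those densities differ from the surroundings was not tested.

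Along the genes, the teneurin peaks lay later than the latrophilin peaks by 1 of the 2 measures tested. Positions ran from the outermost start (0%) to the finish (100%), by peak midpoint, with the strand taken from the RefSeq promoter table. In the first 10% of gene length lay 30 of 396 teneurin peaks (7.58%, exact Clopper-Pearson 95% interval 5.17 to 10.6) and 14 of 79 latrophilin peaks (17.7%, 10.04 to 27.9), a difference of -10.1 percentage points (p = 0.00919, adjusted p = 0.0138 over the 3 family tests, two-sided Fisher's exact test). The call ended without peaks within 1000 bp of a gene end (-6.83 points, p = 0.0585), with peaks under 500 bp apart joined (-6.88 points, p = 0.0847) and without Adgrl3 (-10.1 points, p = 0.0530, all Fisher's exact test). The share was 11.7% over 57172 peaks in 2399 protein-coding genes with a known strand and windows of at least 100 kb. In the first 50% lay 155 teneurin peaks (39.1%, 34.3 to 44.1) and 40 latrophilin peaks (50.6%, 39.1 to 62.1), which did not pass (adjusted p = 0.0613, Fisher's exact test). The share in those long genes was 50.1%.

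The later position was most marked in Tenm3. Only 3 of its 88 inner peaks lay in the first 10% of its length (3.41%, 0.709 to 9.64) and 24 in the first 50% (27.3%, 18.3 to 37.8), and its median peak lay at 74.1% of the gene. The stretch from 80 to 90% of its length alone held 20 peaks. Tenm2 came next, with 53 of 145 peaks in the first 50% (36.6%, 28.7 to 44.9), a median position of 60.8% and as few as 4 peaks between 30 and 40%. Tenm4 was spread almost evenly, with 11 to 21 peaks in every 10% of its length, 78 of 163 in the first 50% (47.9%, 40.0 to 55.8) and a median position of 53.3%. Among the latrophilins, Adgrl3 had 8 of its 45 peaks in the first 10% (17.8%, 8.002 to 32.1) and a median position of 55.3%. Adgrl2 had 4 of 19 there (21.1%, 6.05 to 45.6) and a median of 41.9%, whereas Adgrl1 had 2 of 15 (13.3%, 1.66 to 40.5) and a median of 67.2%, with 7 of its 15 inner peaks beyond 80% of its length. The intervals of the latrophilins are wide because their peaks are few.

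**Figure D4:**
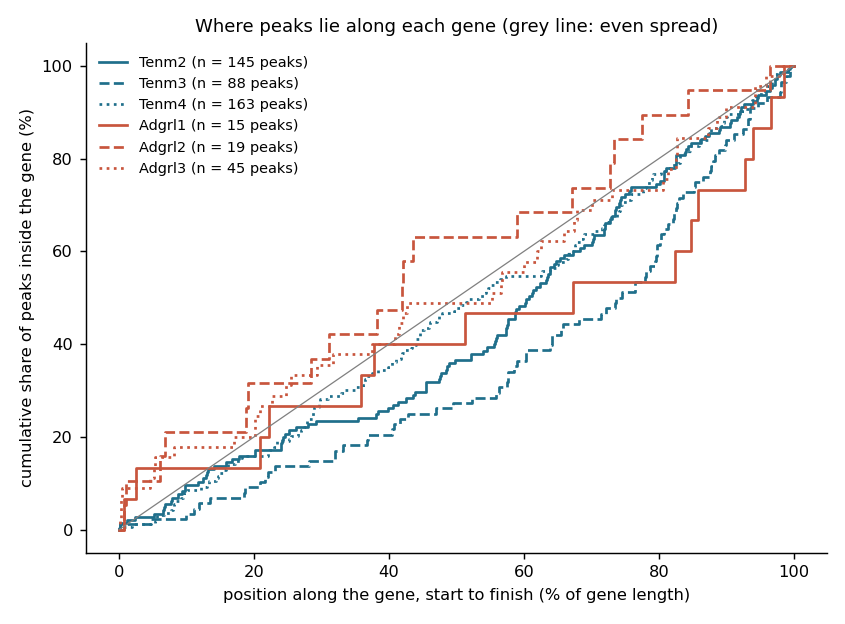
Cumulative share of the peaks inside each gene (%) against position from start (0%) to finish (100%), with an even spread as the grey line (teneurins blue, latrophilins red). Tenm3 runs farthest below the line in the first 50%, reaching 27.3% there, Tenm2 reaches 36.6%, and Tenm4 and Adgrl3 stay near the line.

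How position reads depends on which start is used. Counted from the most upstream start in the promoter table, the shares in the first 50% were 46.1% for teneurins and 47.2% for latrophilins (p = 0.897, Fisher's exact test), and those in the first 10% were 7.49% and 12.5% (p = 0.164, Fisher's exact test). In Tenm3 that start lies 65.4% of the way along the gene. The 848 kb before it held 37 peaks (4.36 per 100 kb), and the 449 kb after it held 51 (11.4 per 100 kb), a ratio of 2.60 (95% interval 1.67 to 4.09, adjusted p = 2.64e-05 over 3 genes, exact conditional binomial test). Tenm2 had 8.54 per 100 kb before and 12.8 after its start, a ratio of 1.499 (0.968 to 2.41, adjusted p = 0.0964, exact test). Adgrl2 had 17.4 before and 9.35 after, a ratio of 0.537 (0.190 to 1.72, adjusted p = 0.244, exact test), with 6 and 13 peaks. The split was made after the positions had been seen.

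Gaps between inner peaks ranged widely. The median gap between neighbouring peaks was 0.645 kb in Adgrl1, 2.30 kb in Tenm4, 4.77 kb in Tenm2, 7.52 kb in Adgrl2, 8.32 kb in Tenm3 and 11.0 kb in Adgrl3. Adgrl3 also had the longest stretch without a peak, 101 kb (chromosome 5, 81364861 to 81466005), from 346 to 447 kb after its start and 12.5% of the gene. The longest in Tenm2 was 75.4 kb, 359 to 434 kb after its start (chromosome 11, 36802639 to 36877997). In Tenm3 it was 66.8 kb (chromosome 8, 49395269 to 49462062), in Tenm4 37.8 kb (chromosome 7, 96595993 to 96633774), in Adgrl2 26.3 kb (chromosome 3, 148886911 to 148913249) and in Adgrl1 7.39 kb (chromosome 8, 83901268 to 83908659). The densest 50 kb of Tenm3, which began 1030 kb after its start, held 13 of its 88 inner peaks (14.8%) in 3.85% of its length. The densest 50 kb of Adgrl3 began at its first peak and held 7 of 45 (15.6%) in 6.18% of its length. In Tenm4 the densest 50 kb held 18 peaks and began 536 kb after the start, and in Tenm2 it held 14 and began 705 kb after the start.

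Several of the widest peaks lay deep inside the teneurin genes. Inner peaks are ranked here only if they lay over 1000 bp from an end of the gene. The widest inner peak of Tenm3, 1953 bp (chromosome 8, 48842580 to 48844532), lay 679 kb after the outermost start, in sequence shared with the noncoding gene Gm19744, and was wider than the peak at the gene's own start. The next in Tenm3 was 1416 bp (chromosome 8, 48554807 to 48556222), 967 kb after the start. Tenm4 had one of 1927 bp (chromosome 7, 96651510 to 96653436), 481 kb after its start. A further Tenm4 peak of 1638 bp (chromosome 7, 96209668 to 96211305) lay 39.2 kb after the start, just before its second promoter window. In Tenm2 the widest inner peaks were 1311 bp (chromosome 11, 36120640 to 36121950) and 1194 bp (chromosome 11, 36565999 to 36567192). The widest peak of the Tenm2 window, 1638 bp (chromosome 11, 36000635 to 36002272), lay beyond the finish of the gene and touched Gm42072. Counting those at gene ends too, 79 latrophilin peaks lay inside the genes, against 396 in teneurins. The widest latrophilin peaks over 1000 bp from an end were 1169 bp in Adgrl3 (chromosome 5, 81022033 to 81023201), 3.53 kb after the start, then 1116 bp in Adgrl2 (chromosome 3, 148976886 to 148978001) and 1056 bp in Adgrl1 (chromosome 8, 83915409 to 83916464). The second in each was 961 bp (Adgrl3), 793 bp (Adgrl2) and 764 bp (Adgrl1).

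**Figure D5:**
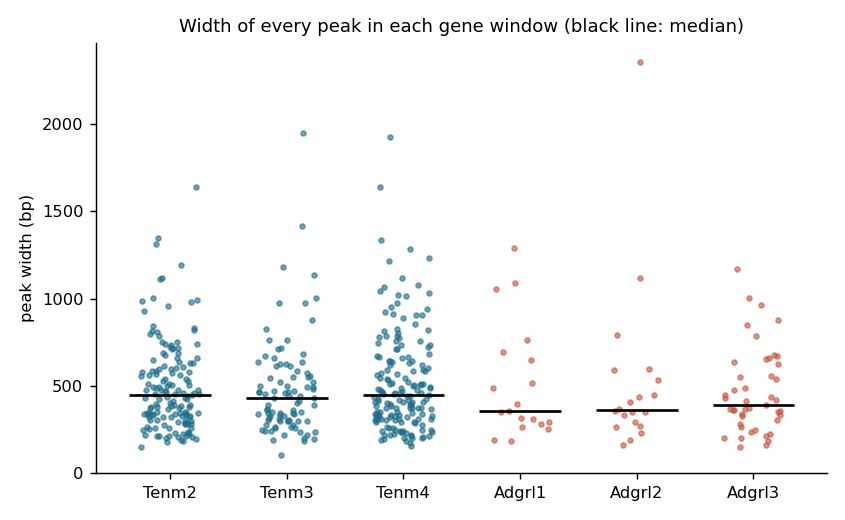
Width in bp of each of the 491 peaks by gene, with the median as a black line (teneurins blue, latrophilins red). Medians run from 354 bp in Adgrl1 to 449 bp in Tenm2, and the single widest peak, 2356 bp, is at Adgrl2.

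Over all peaks, the median width was 449 bp in Tenm2, 447 bp in Tenm4 and 429.5 bp in Tenm3, against 389 bp in Adgrl3, 361 bp in Adgrl2 and 354 bp in Adgrl1. Pooled, it was 442 bp (quartiles 314 and 629) for teneurins and 371 bp (288 and 605) for latrophilins, beside 425 bp (308 and 625) for the whole list, and the quartile ranges overlapped widely. Peaks of at least 500 bp made up 39.1% of teneurin and 33.3% of latrophilin peaks, beside 38.3% of all peaks. The difference in width was not tested. Peaks covered 15.7% of the Adgrl1 window and 11.6% of that of Tenm4, then 5.91% (Tenm2), 5.39% (Adgrl2), 3.32% (Tenm3) and 2.52% (Adgrl3), the same order as peaks per 100 kb. The authors' score was below its ceiling of 1000 for 10 of the 491 peaks, 5 of them in Tenm4, and was not used to rank them.

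Other annotated genes touched some of these peaks, all of them noncoding. They were touched by 11 of 19 peaks in Adgrl1 (Gm10644 and Gm26721), 11 of 90 in Tenm3, 15 of 148 in Tenm2 and 4 of 169 in Tenm4 (Gm15412 and Gm15413), and by none in Adgrl2 or Adgrl3. The file has no strand, so a peak shared in this way cannot be assigned to 1 of the genes. No share over all peaks stands beside these counts of touched peaks, so nothing is read from their size.

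The wider set of partners was examined in the same way. Of 9 further genes of the network (Tenm1, Adgrl4, Flrt1 to Flrt3 and the Unc5 genes), 8 had a peak within 1000 bp of an outermost end, beside 70.4% of all protein-coding genes, and nothing is read from so small a count. The exception was Adgrl4, a relative of the latrophilins known from blood vessel endothelium, with 6 peaks (4.72 per 100 kb). Their densities ran from 1.52 per 100 kb (0.831 to 2.55) at Tenm1 to 39.5 (28.1 to 54.0) at Flrt1, which lies within Macrod1 and shares its peaks. Tenm1, the remaining teneurin, is 901 kb long and held 14 peaks, with no peak in the 275 kb from 435 to 711 kb after its start. It lies on chromosome X, where the median of 136 genes with windows of at least 100 kb was 2.95 per 100 kb, against 11.1 for 2999 such genes on autosomes. Of 3 brain adhesion receptors of the Adgrb family, Adgrb1 and Adgrb2 had a peak within 1000 bp of an outermost end. Adgrb3 did not, though a peak touched its 1 promoter window. Densities in the Adgrb family ran from 6.60 per 100 kb at Adgrb3 (767 kb long) to 33.2 at Adgrb1 (73.3 kb long), with 32.8 at Adgrb2 (37.9 kb long).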

How the data were processed

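ATAC-seq was run on 18 samples (pairs of 50 bp reads, per the labels), and 1 deposited list of consensus intervals was analysed. Its interval names carry the name of the program MSPC, per the file, and MACS2, deepTools, MultiQC and mm10 are named in the submitters' processing notes. For the aligner, read shift, calling thresholds and contributing samples, nothing is given in the sources used here. The authors deposited a score per interval, at 1000 for 98.5% of them, which was not used to rank or filter.

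Gene ends came from RefSeq (GRCm38.p6, 49997 genes, 17 without a chromosome and 348 on scaffolds left out, 21774 nuclear protein-coding genes kept), and strand and promoter sequence from its promoter table. A peak belonged to a window if any base overlapped. Families were compared by an exact conditional binomial test and Fisher's exact test on peaks, which are not independent replicates, so p-values cover counting error only. The binomial test was tried on simulated independent counts only, and Fisher's exact test was not tried on simulated data. The genes, lists and tests were chosen with earlier results of these data known. The named genes are the 6 members, 12 relatives by counts and extremes, and per gene the widest end peak, the 2 widest inner peaks and the longest gap. Comparisons of gene pairs and with surroundings, and the split at the promoter table's start, were added after the data were seen. Alternatives were flanks of 0, 2 and 50 kb, peaks of at least 500 bp, peak midpoints, peaks at gene ends left out, peaks under 500 bp apart joined and each gene left out. Exact tests used scipy 1.17.1, tables pandas 2.3.3 and numpy 2.4.6, and figures matplotlib 3.10.9, under Python 3.11.15.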

Additional observations from a re-analysis of the deposited data

How the results depend on the processing

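No paired analysis was possible because the list has no columns for samples. Of 54 alternative densities of single genes, 44 stayed within the main 95% interval. That interval is wide for Adgrl1 (19.0 with a flank of 50 kb, 19.4 without peaks at its ends and 39.3 with a flank of 2 kb). Using peak midpoints, or leaving out peaks within 1000 bp of an end of another protein-coding gene, changed no count in any member. These settings repeat the main values, for the genes and for the ratio of the families, and add no support to the counts of alternatives. With peaks of at least 500 bp, which keeps fewer peaks by construction, densities fell to 4.72 (Tenm2), 2.35 (Tenm3), 9.08 (Tenm4), 11.3 (Adgrl1), 3.10 (Adgrl2) and 1.81 (Adgrl3) per 100 kb. With peaks under 500 bp apart joined, Tenm2 had 9.84, Tenm4 17.4 and Adgrl1 17.8. From the promoter table's start, a setting added after the data were seen, Tenm3 had 11.3. The teneurin to latrophilin ratio kept its direction and its side of the threshold in 14 of 17 alternatives (1.52 to 2.09), of which 1, covered bases in place of peaks, has no test. It was 1.20 without Tenm4, turned to 0.801 without Adgrl3 and to 0.880 with each gene weighted alike (added later), since Adgrl3 holds most of the latrophilin sequence. The difference over the first 10% of gene length kept its direction in all 10 alternatives and missed the threshold in 4. These were -6.83 points without peaks at gene ends (p = 0.0585), -6.88 with near peaks joined (p = 0.0847), -5.01 from the promoter table's start (p = 0.164) and -10.1 without Adgrl3 (p = 0.0530), all by Fisher's exact test. The difference over the first 50% passed in 3 of 10, at -22.6 points for peaks of at least 500 bp (p = 0.0479), -17.6 without Tenm4 (p = 0.00700) and -14.0 without Adgrl1 (p = 0.0401, Fisher's exact test). Sequencing depth is unknown, so stretches without a peak may hold sites below the calling threshold.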
